A study of Mus musculus with 24 samples.

Results

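The genes described here are 29 mouse genes of cholesterol metabolism, chosen by symbol from a fixed list. They comprise 7 enzymes of the mevalonate and isoprenoid steps, 11 enzymes of the sterol steps, 5 genes that control the SREBP transcription factors, and 6 genes of sterol carriage, export, sensing and storage. All 29 symbols were matched among the 54232 gene identifiers counted in each library. The list is named for synthesis and uptake, but it contains no lipoprotein receptor; receptors were examined as a separate list. RNA came from marrow stromal cultures kept for 7 days, from female C57BL/6 mice aged 6 to 8 weeks. The mice were wild type (WT) or carried 2 copies of a knock-in allele of Sh3bp2, an adaptor protein gene (genotype Sh3bp2KI/KI, titled CBM and named for cherubism, an inherited inflammatory disease of the jaw bones). Each culture type was sorted by flow cytometry into CD45+Sca1+ cells, called hematopoietic, and CD45-Sca1+ cells, called mesenchymal. This gave 4 groups of 6 libraries, which share strain, sex, culture and selection for Sca1. Neither the change that the allele makes in the transcript nor the origin of the replicates (separate mice, separate cultures or neither) is stated in the labels. P-values therefore measure only the spread between these libraries, which may be technical.

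Cells build cholesterol from acetyl-CoA. The mevalonate steps make isoprenoid units, which are joined to squalene, and the sterol steps close and trim the ring system. When the endoplasmic reticulum holds little sterol, SCAP carries SREBP proteins to the Golgi for cleavage, and the freed SREBP2 switches on the synthesis enzymes; INSIG proteins hold SCAP back when sterol is plentiful. Oxysterols activate the liver X receptors (LXR), which switch on the exporters Abca1 and Abcg1 and the ubiquitin ligase Mylip, which marks lipoprotein receptors for destruction. Macrophages, a main hematopoietic cell type of such cultures, take in much cholesterol from lipoproteins and dead cells and rely on export.

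The 24 libraries held 9875390 to 15826711 counts. Levels below are CPM, each count divided by the library's total after TMM scaling over all 24 libraries, and a gene was called at an adjusted p under 0.05 in edgeR's quasi-likelihood test. Sh3bp2 was at 162.6 to 233.8 CPM in WT and 184.7 to 285.8 CPM in CBM hematopoietic libraries, and at 6.46 to 8.55 CPM in WT and 6.25 to 8.89 CPM in CBM mesenchymal libraries. Its groups overlapped in both populations, and its level does not check a genotype that may differ only in sequence. Ptprc, which encodes CD45, averaged 793.4 CPM in WT hematopoietic and 2.98 CPM in WT mesenchymal libraries (CD45 is positive in one gate and negative in the other). Ly6a, which encodes Sca1, averaged 9.99 to 12.1 CPM in any group although both gates select for it. The macrophage marker Itgam was listed at 0 in all 24 libraries. Stromal markers (12 genes) summed to 1880 to 12660 CPM in the hematopoietic libraries against 27330 to 64880 CPM in the mesenchymal ones. Leukocyte markers (12 genes) summed to 28.6 to 133.1 CPM in the mesenchymal libraries. The deposited names split the libraries into 2 sets of 12, with replicates 1 to 3 of every group in set 1 and replicates 4 to 6 in set 2; no label says what the sets are, and the set was a term in each fit.

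Every enzyme of the list was detected in every library. Per kilobase of exon, the mean level in WT mesenchymal libraries was highest for Hmgcs1 (35.6 CPM per kb), which makes HMG-CoA, and for Cyp51 (32.2 CPM per kb), which removes a methyl group from lanosterol. In WT hematopoietic libraries the exporter Abca1 led at 93.8 CPM per kb, ahead of Soat1 at 43.9 CPM per kb, which esterifies cholesterol for storage, and Insig1 at 37.5 CPM per kb. Fdps, which makes farnesyl diphosphate, was lowest in both, at 0.482 CPM per kb in WT hematopoietic and 0.290 CPM per kb in WT mesenchymal libraries. Fdps has near-identical copies in the genome, so its counts may miss reads that map to more than 1 place. Fdps also overlaps Gm22935 and Gm43738 on its own strand, and its counts may miss reads there too. In bulk RNA, fewer cells of a type and less RNA per cell cannot be told apart.

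**Figure D1:**
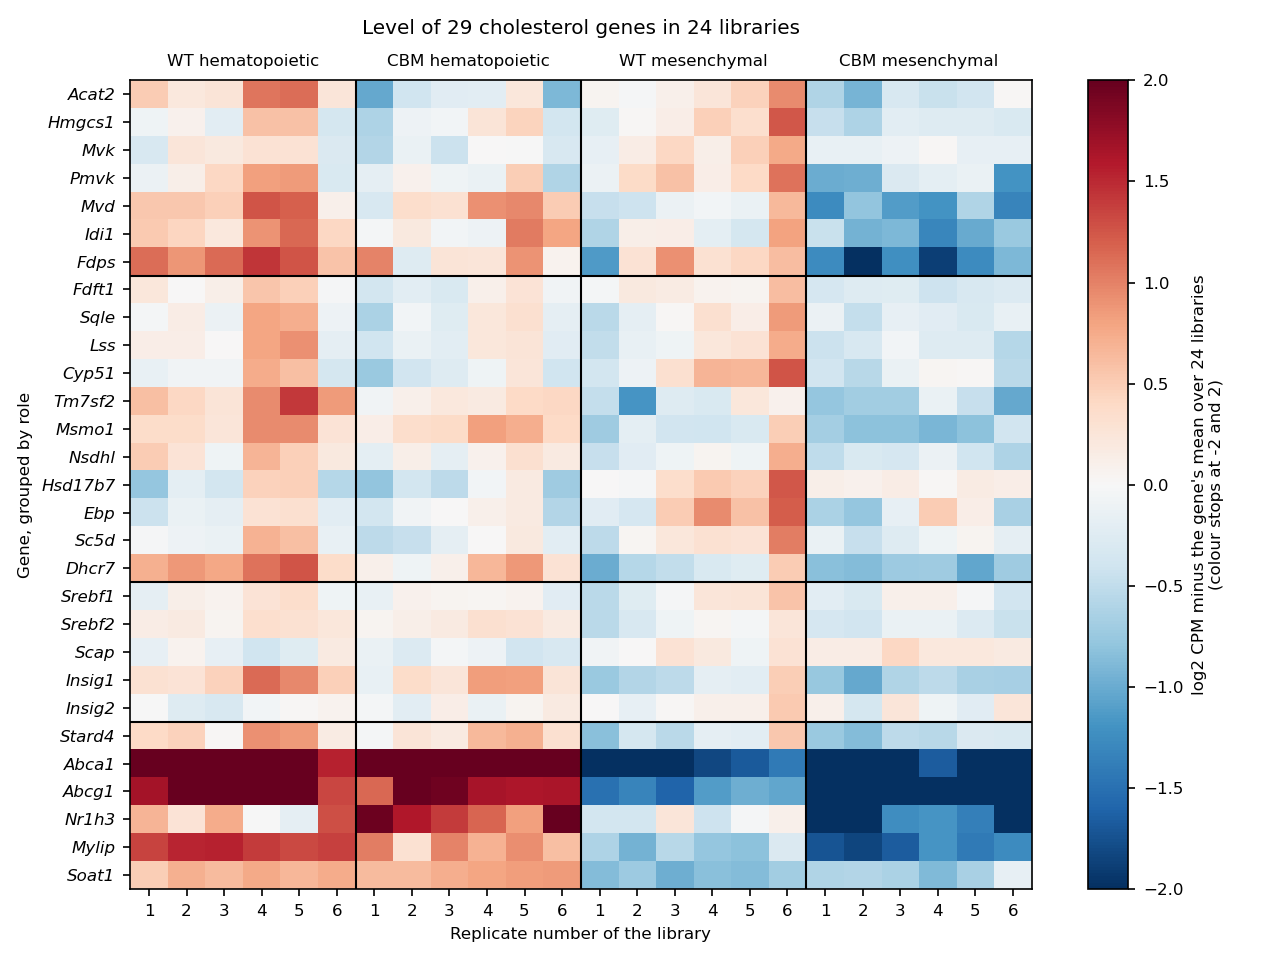
Level of each of the 29 genes in each library, as log2 CPM minus that gene's mean over the 24 libraries (colour), with genes in rows by role and replicate numbers 1 to 6 in columns by group. The lower rows separate the populations, and the rows of synthesis enzymes are mostly pale to blue in CBM mesenchymal libraries and, among WT mesenchymal libraries, highest in replicate 6 for 16 of the 18 enzymes.

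The first comparison asked how the knock-in changed these genes in mesenchymal cells. In CBM mesenchymal cells 7 of the 17 synthesis enzymes tested fell: Acat2, Hmgcs1, Pmvk, Mvd and Idi1 of the mevalonate steps, and Fdft1 and Cyp51 of the sterol steps. The estimates of all 17 were below 0, with a median of -0.50 on the log2 scale. An unadjusted p under 0.05 was reached by 16 of the 17, and by 3152 of the 13867 genes tested. Over all 28 members tested, 10 fell and 0 rose, with a median of -0.43; over the 13867 genes tested, 3.83 percent fell and 3.44 percent rose, with a median of 0.001. By DESeq2, 14 members fell and 0 rose, while the count of all genes called went from 1008 to 1664. Of the members with an estimate above 0, Soat1 alone had an unadjusted p under 0.05. Fdps was too low to test, with 1 or more counts in every library and 0.0879 to 0.511 CPM in CBM against 0.437 to 1.79 CPM in WT.

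Among the mevalonate enzymes, Mvd (ENSMUSG00000006517, chr8:122433601-122443422, minus strand of GRCm38), which makes isopentenyl diphosphate, was at 7.42 to 16.01 CPM in WT mesenchymal libraries (median 9.36) and at 4.09 to 6.77 CPM in CBM (median 4.58). Pmvk (ENSMUSG00000027952, chr3:89454541-89469013, plus strand), the phosphomevalonate kinase of the step before, was at 11.6 to 26.7 CPM in WT (median 16.4) and 5.48 to 11.47 CPM in CBM (median 8.36). Every CBM library lay below every WT library for both genes. The fitted log2 difference was -0.96 ± 0.19 (SE) at an adjusted p of 0.00878 for Mvd and -1.02 (SE 0.22, adjusted p = 0.0151) for Pmvk. Acat2 (ENSMUSG00000023832, chr17:12942890-12960747, minus strand), which joins acetyl-CoA units at the entry of the pathway, was at 10.9 to 21.4 CPM in WT (median 12.5) and 5.80 to 11.3 CPM in CBM (median 8.35), a fitted log2 difference of -0.73 ± 0.15 (SE) at an adjusted p of 0.00963. Only the highest CBM library, replicate 6 at 11.32 CPM, reached into the WT range of Acat2.

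Hmgcs1 (ENSMUSG00000093930, chr13:119690379-119708260, plus strand) was at 103.8 to 291.5 CPM in WT mesenchymal libraries (median 145.5) and at 80.3 to 106.7 CPM in CBM (median 101.1), a fitted log2 difference of -0.70 ± 0.16 (SE) at an adjusted p of 0.0217. Idi1 (ENSMUSG00000058258, chr13:8885501-8892451, plus strand), the isomerase that makes dimethylallyl diphosphate, was at 3.79 to 10.0 CPM in WT (median 5.63) and 2.32 to 4.22 CPM in CBM (median 3.04), a fitted log2 difference of -0.92 ± 0.24 (SE) at an adjusted p of 0.0335. For both genes the lowest WT library, replicate 1, lay inside the CBM range, and the other 5 lay above every CBM library. Mvk, the mevalonate kinase, was not called (log2 fold change -0.43, SE 0.13, adjusted p = 0.0549).

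Of the 11 sterol enzymes, Fdft1 (ENSMUSG00000021273, chr14:63145150-63179578, minus strand), which makes squalene, was at 54.3 to 85.8 CPM in WT mesenchymal libraries (median 60.2) and at 41.9 to 47.3 CPM in CBM (median 45.3), with no overlap. The fitted log2 difference of Fdft1 was -0.49 ± 0.10 (SE) at an adjusted p of 0.00903. On the other strand, Fdft1 overlaps Ctsb, Mvd overlaps Gm20388, Cyp51 overlaps Akap9, Hmgcs1 overlaps Gm48342 and Idi1 overlaps Gm48574. Nr1h3 overlaps Gm13783 on its own strand and Gm23390 on the other, and Abcg1 overlaps Gm25447 on its own strand. No source used here gives the strand setting of the counting, and reads of these genes and their neighbours may be mixed. Cyp51 (ENSMUSG00000001467, chr5:4081145-4104746, minus strand) was at 77.5 to 238.7 CPM in WT (median 142.3) and 68.4 to 103.2 CPM in CBM (median 84.3), a fitted log2 difference of -0.67 ± 0.18 (SE) at an adjusted p of 0.0453, with 2 WT libraries inside the CBM range. The other 9 sterol enzymes were not called, with estimates from -0.69 for Ebp (SE 0.21, adjusted p = 0.0729) to -0.32 for Tm7sf2 (SE 0.23, adjusted p = 0.447).

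None of the 5 SREBP control genes was called in mesenchymal cells by edgeR. Insig1, itself a target of SREBP proteins, was at 44.5 to 104.4 CPM in WT and 36.6 to 52.0 CPM in CBM (log2 fold change -0.42, SE 0.13, adjusted p = 0.0755); it was the 1 gene of the 5 with an unadjusted p under 0.05 and the 1 called by DESeq2. Srebf2, which encodes SREBP2, had a log2 fold change of -0.16 with an interval (1.96 SE each way) of -0.36 to 0.05. Scap was at 0.12, with an interval of -0.06 to 0.29.

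The largest falls among the members were those of an exporter and an LXR gene. Abcg1 (ENSMUSG00000024030, chr17:31057675-31117988, plus strand), an exporter that hands cholesterol to lipoproteins, was at 8.02 to 12.4 CPM in WT mesenchymal libraries (median 10.5) and at 3.33 to 5.55 CPM in CBM (median 4.52), a fitted log2 difference of -1.199 ± 0.12 (SE) at an adjusted p of 0.000135. Nr1h3 (ENSMUSG00000002108, chr2:91184061-91202834, minus strand), which encodes LXR alpha, was at 6.06 to 9.58 CPM in WT (median 7.11) and 0.879 to 3.55 CPM in CBM (median 2.39), a fitted log2 difference of -1.69 ± 0.31 (SE) at an adjusted p of 0.0059. Mylip (ENSMUSG00000038175, chr13:45389742-45412022, plus strand) was at 22.6 to 35.7 CPM in WT (median 27.02) and 12.1 to 19.3 CPM in CBM (median 15.1), a fitted log2 difference of -0.85 ± 0.12 (SE) at an adjusted p of 0.00102. The CBM and WT libraries did not overlap for any of these 3 genes. The share of all genes that separate without overlap is not given here for any comparison. Abca1, the exporter to lipid-poor apolipoprotein, was not called at 35.7 to 83.4 CPM in WT and 21.3 to 69.7 CPM in CBM (log2 fold change -0.42, adjusted p = 0.304; -0.62 and 0.0395 with the leukocyte marker level as a covariate), nor were the sterol carrier Stard4 (-0.31, adjusted p = 0.205) and Soat1 (0.26, adjusted p = 0.135).

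Other values moved with the mesenchymal calls. The 6 adipocyte markers summed to 35.6 to 60.8 CPM in WT and 7.30 to 23.2 CPM in CBM mesenchymal libraries without overlap. Lep was at 0 in all 12 libraries. Of the 3 markers tested, Plin4 and Fabp4 fell. Adipoq was also called lower, at 28 to 151 counts in WT and 0 to 4 counts in CBM libraries. It passed the low-count filter only through WT, so its fall is not further support. The difference in adipocyte markers and the genotype cannot be told apart. Each set alone, with 3 libraries a group, called few genes: 391 in set 1 and 76 in set 2, against 1008 with both sets. Of the members, 2 of 28 were called in set 1 (median log2 fold change -0.245) and 1 of 29 in set 2 (median -0.664). Without WT mesenchymal replicate 6 the calls of Cyp51 (adjusted p = 0.0704) and Idi1 (0.0677) were lost. Cyp51 was also lost without WT replicate 3, 4 or 5 or CBM replicate 1, 2, 4, 5 or 6 (adjusted p up to 0.0963), Idi1 without WT replicate 2 or 3 or CBM replicate 2, 3, 4 or 5 (up to 0.0712), and Hmgcs1 without CBM replicate 5 (0.0502). With no filter on low counts Cyp51 (adjusted p = 0.145) and Hmgcs1 (0.0762) were not called, and Cyp51 was also lost with no set term (0.0906) and with the leukocyte marker level as a covariate (0.0604). Most of the 10 calls, those of Hmgcs1, Idi1 and Cyp51 among them, were made in neither set alone. The calls of Acat2, Pmvk, Mvd, Fdft1, Abcg1, Nr1h3 and Mylip held with any 1 of the 12 libraries left out.

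**Figure D2:**
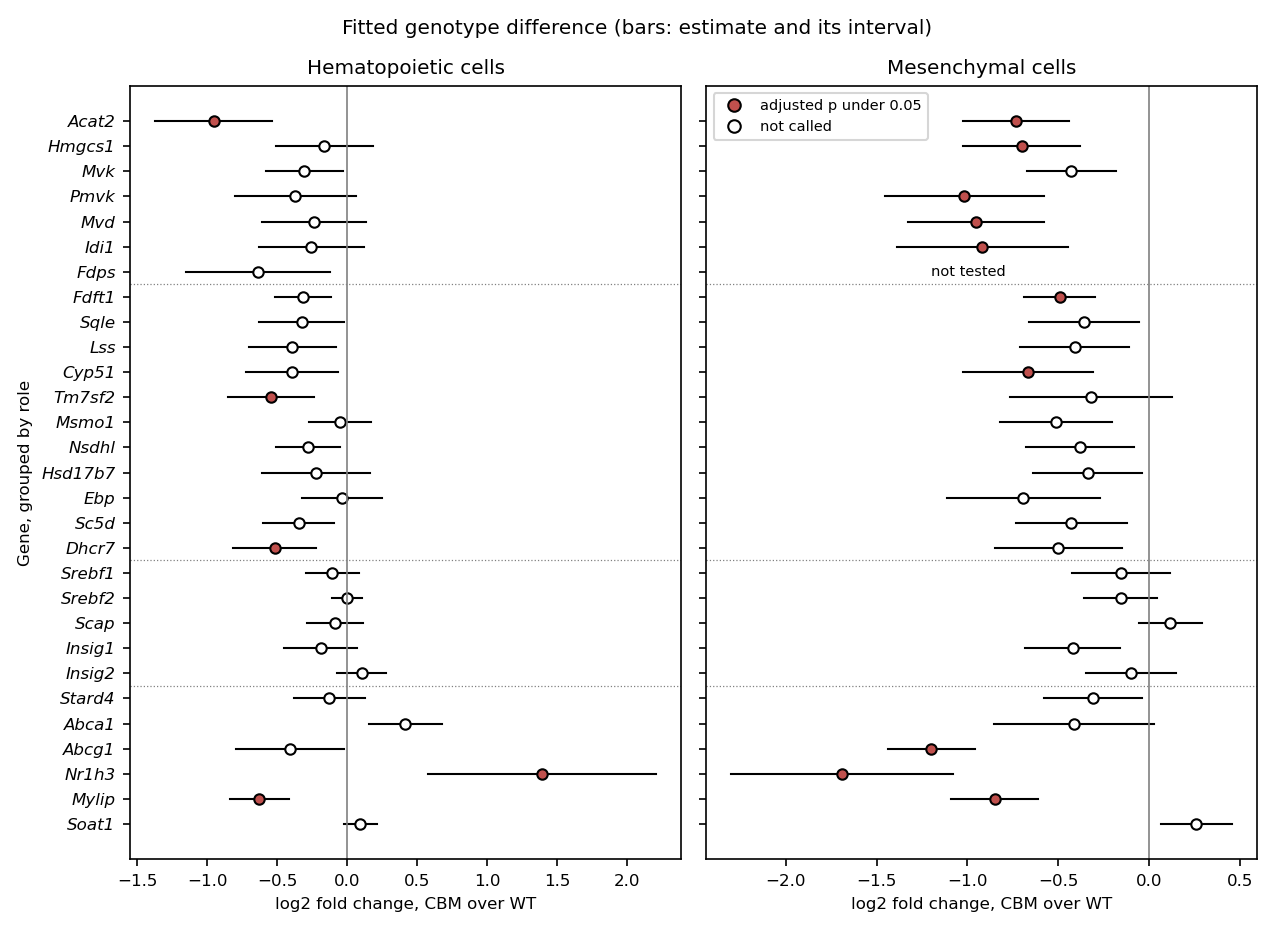
Fitted log2 fold change of CBM over WT for each gene (points) with 1.96 SE each way (bars) in hematopoietic (left) and mesenchymal cells (right), filled where the adjusted p is under 0.05. All synthesis enzymes tested lie left of 0 in both panels (Fdps was not tested on the right), while Nr1h3 lies at 1.39 on the left and at -1.69 on the right.

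Promoter sequences are shown for 4 genes that fell in mesenchymal cells, 3 mevalonate enzymes and Mylip. That of Hmgcs1 is shown because it holds the SRE-like letters TCACNCCAC. The others are called genes whose start in RefSeq equals the start in the coordinates given here. Other called genes with a sequence, Acat2, Idi1 and Cyp51 among them, did not meet this rule and are not shown. SREBP proteins are known to bind beside the factors NF-Y and Sp1. They are from RefSeq on GRCm38.p6, printed in the direction of the gene, and end just before the gene's start except that of Hmgcs1, which ends 69 bases before it. For Hmgcs1 the start is that of RefSeq, chr13:119690351, which lies upstream of the gene's first base in the annotation used for the counts. Capitals mark the NF-Y letters CCAAT or their reverse complement ATTGG, and in Hmgcs1 also the SRE-like letters, the first base of which lies 137 bases before RefSeq's start.
Hmgcs1, chr13:119690154-119690282, plus strand: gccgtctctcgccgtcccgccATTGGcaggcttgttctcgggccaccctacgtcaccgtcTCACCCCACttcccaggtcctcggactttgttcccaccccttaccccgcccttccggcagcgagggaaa
Pmvk, chr3:89454341-89454540, plus strand: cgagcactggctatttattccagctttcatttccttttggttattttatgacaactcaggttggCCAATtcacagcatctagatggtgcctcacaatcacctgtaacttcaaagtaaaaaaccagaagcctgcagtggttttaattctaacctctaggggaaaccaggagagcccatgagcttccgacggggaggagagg
Mvd, chr8:122443423-122443622, minus strand: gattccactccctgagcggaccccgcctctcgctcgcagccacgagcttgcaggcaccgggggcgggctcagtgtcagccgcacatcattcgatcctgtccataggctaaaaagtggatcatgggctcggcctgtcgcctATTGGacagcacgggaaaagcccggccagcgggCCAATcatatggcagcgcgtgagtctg
Mylip, chr13:45389542-45389741, plus strand: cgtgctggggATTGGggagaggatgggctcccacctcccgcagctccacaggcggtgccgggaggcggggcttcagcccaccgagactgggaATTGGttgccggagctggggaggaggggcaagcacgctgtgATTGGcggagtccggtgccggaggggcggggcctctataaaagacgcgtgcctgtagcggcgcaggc

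Windows from 250 bases before to 50 bases after the start were matched for 24 of the 29 genes (33 windows) and searched on both strands. CCAAT was found in 63.6% of these windows against 37.4% of all 32851 RefSeq windows of that length, and in 14 of the 15 matched synthesis enzymes (not in Acat2). GGGCGG, the Sp1 letters, stood in 78.8% of member windows against 35.7% of all, and in 14 of the 15 enzymes (not in Pmvk). Acat2 and Pmvk were both called lower in mesenchymal cells. The SRE-like letters TCACNCCAC occurred in 1 member window, that of Hmgcs1, against 1.24% of all windows. A direct repeat of the LXR half-sites AGGTNA and NGGTCA spaced by 4 bases was in 0 member windows and in 0.0883% of all. Base composition was not matched between member and other windows, and a match describes letters and not binding. Fdps, Fdft1, Sqle, Stard4 and Abcg1 were not matched.

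The second comparison asked the same of hematopoietic cells. In CBM hematopoietic cells 3 of 18 synthesis enzymes fell (Acat2, Tm7sf2 and Dhcr7), Mylip fell, and Nr1h3 rose. Of the 29 members tested, 4 fell and 1 rose, against 6.89 percent and 9.01 percent of the 14030 genes tested. The share of members that rose was smaller than that of all genes. The estimates of all 18 enzymes were below 0, with a median of -0.32. An unadjusted p under 0.05 was reached by 10 of the 18, and by 4024 of the 14030 genes tested. The median was -0.26 over the 29 members and -0.005 over all genes tested. With the replicate number as a term in place of the set, 11 members fell and 2 rose. The genes called went from 2231 to 3315 in that fit. No label says that same-numbered libraries belong together.

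Acat2 was at 12.8 to 24.2 CPM in WT hematopoietic libraries (median 14.6) and at 5.44 to 12.97 CPM in CBM (median 8.96), a fitted log2 difference of -0.96 ± 0.21 (SE) at an adjusted p of 0.00858. The groups met only at the highest CBM library, replicate 5, and the lowest WT library, replicate 2. Tm7sf2 (ENSMUSG00000024799, chr19:6062821-6068373, minus strand), a sterol reductase that overlaps Vps51 on the same strand, was at 4.26 to 9.46 CPM in WT (median 5.89) and 3.37 to 4.71 CPM in CBM (median 4.07), a fitted log2 difference of -0.55 ± 0.16 (SE) at an adjusted p of 0.0326. Dhcr7 (ENSMUSG00000058454, chr7:143823145-143848410, plus strand), the reductase that turns the vitamin D precursor into cholesterol, was at 21.4 to 39.8 CPM in WT (median 29.2) and 15.6 to 30.3 CPM in CBM (median 19.1), a fitted log2 difference of -0.52 ± 0.15 (SE) at an adjusted p of 0.0347. Both of these overlapped between the groups. The other 15 enzymes were not called, with estimates from -0.64 for Fdps (SE 0.26, adjusted p = 0.125) to -0.04 for Ebp (SE 0.15, adjusted p = 0.898); Fdft1 was at -0.32 (SE 0.10, adjusted p = 0.0561).

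Mylip was at 108.9 to 126.9 CPM in WT hematopoietic libraries (median 113.5) and at 53.6 to 88.4 CPM in CBM (median 76.7). All 6 CBM libraries lay below all 6 WT libraries, which held for no other member in this population. Without the share of all genes that separate in this way, it cannot be said whether this is unusual. The fitted log2 difference of Mylip was -0.63 ± 0.11 (SE) at an adjusted p of 0.00161. Nr1h3 was at 7.11 to 19.8 CPM in WT (median 11.3) and at 14.3 to 76.5 CPM in CBM (median 22.9), a fitted log2 difference of 1.39 ± 0.42 (SE) at an adjusted p of 0.0412. Replicate 6 was the highest of its group for Nr1h3 in both genotypes, and without CBM replicate 6 the log2 fold change was 0.854 (adjusted p = 0.0523). Abca1 was at 645.8 to 1165 CPM in WT and 965.2 to 1448 CPM in CBM (log2 fold change 0.42, SE 0.13, adjusted p = 0.0518), and Abcg1 at 61.7 to 141.9 CPM in WT and 53.8 to 98.4 CPM in CBM (-0.41, SE 0.20, adjusted p = 0.199). Neither exporter was called by edgeR; Abca1 was called by DESeq2 (adjusted p = 0.0176) and by edgeR with the stromal marker level as a covariate (0.00669). None of the 5 SREBP control genes was called by edgeR or DESeq2, and 0 of the 5 had an unadjusted p under 0.05; for Srebf2 the interval was -0.11 to 0.10.

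Of the leukocyte markers tested in hematopoietic cells, 5 of 11 fell, Adgre1 among them (log2 fold change -0.54, adjusted p = 0.00752), and Lyz2 rose (0.66, adjusted p = 0.00482), so the CBM cells differed in marker genes as well; their part in the result was not tested. The sum of the 12 markers was 11290 to 19210 CPM in WT and 16760 to 25070 CPM in CBM, and Lyz2 made up most of it, at a mean of 9681 CPM in WT and 15070 CPM in CBM. Without Lyz2 the other 11 markers summed to 4788 to 5779 CPM in WT and 4370 to 4989 CPM in CBM. Of the 2 adipocyte markers tested in hematopoietic cells, Plin4 fell (log2 fold change -2.77, adjusted p = 0.00651), from a mean of 1.87 CPM in WT to 0.255 CPM in CBM without overlap, and Fabp4 was at 0.19 (adjusted p = 0.827). Plin4 held 12 to 42 counts in WT and 0 to 8 counts in CBM libraries, and passed the low-count filter only through WT. The 6 adipocyte markers summed to 4.01 to 10.04 CPM in WT and 2.77 to 15.7 CPM in CBM, Plin1 was at 0 in all 12 libraries, and the part of these markers in the result was not tested. With 1 library left out, 2 members were called without WT replicate 1 or 5 or CBM replicate 1, 3 without WT replicate 2, 3 or 4 or CBM replicate 2, 3, 4 or 6, and 10 without WT replicate 6. Nr1h3 lost its call without any of WT replicates 1 to 5 or CBM replicates 1, 2, 3 or 6 (adjusted p up to 0.0903), Dhcr7 without WT replicates 1 to 5 or CBM replicates 1, 2, 3, 4 or 6 (up to 0.0857), and Tm7sf2 without WT replicate 1, 4 or 5 or CBM replicate 1, 4, 5 or 6 (up to 0.0921). With no filter on low counts Tm7sf2 (adjusted p = 0.0823) and Nr1h3 (0.135) were not called, and with no set term Tm7sf2 (0.0699) and Dhcr7 (0.086) were not. Acat2 and Mylip were called with any 1 of the 12 libraries left out.

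The genotype difference was then compared between the populations. Nr1h3 was the 1 member called: its genotype difference was lower in mesenchymal than in hematopoietic cells by a log2 value of -3.07 (SE 0.54, adjusted p = 0.00083), with a rise in one and a fall in the other. Of the 29 members, 1 was called lower and 0 higher, against 4.36 percent and 2.92 percent of 15389 genes. DESeq2 called 1 lower and 0 higher. An unadjusted p under 0.05 was reached by 8 members, and by 3015 of the 15389 genes. By adjusted p, Abcg1 came next at -0.78 (SE 0.26, adjusted p = 0.0762), then Abca1 at -0.84 (SE 0.33, adjusted p = 0.135) and Mvd at -0.71 (SE 0.28, adjusted p = 0.137). By size the next estimate after Nr1h3 was that of Fdps, at -1.14 (SE 0.45, adjusted p = 0.141). The falls of Acat2 (difference 0.23, interval -0.29 to 0.74) and Mylip (-0.20, interval -0.56 to 0.15) were called in both populations, and their difference was not. The larger number of enzymes called in mesenchymal cells was not shown to differ between populations by this test for any single enzyme. The order of the member counts also depended on the fit. With the replicate number as a term in place of the set, 13 members were called in hematopoietic and 10 in mesenchymal cells. The call of Nr1h3 held with any 1 of the 24 libraries left out and in set 1 alone, and was lost in set 2 alone (adjusted p = 0.161, log2 value -2.95).

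**Figure D3:**
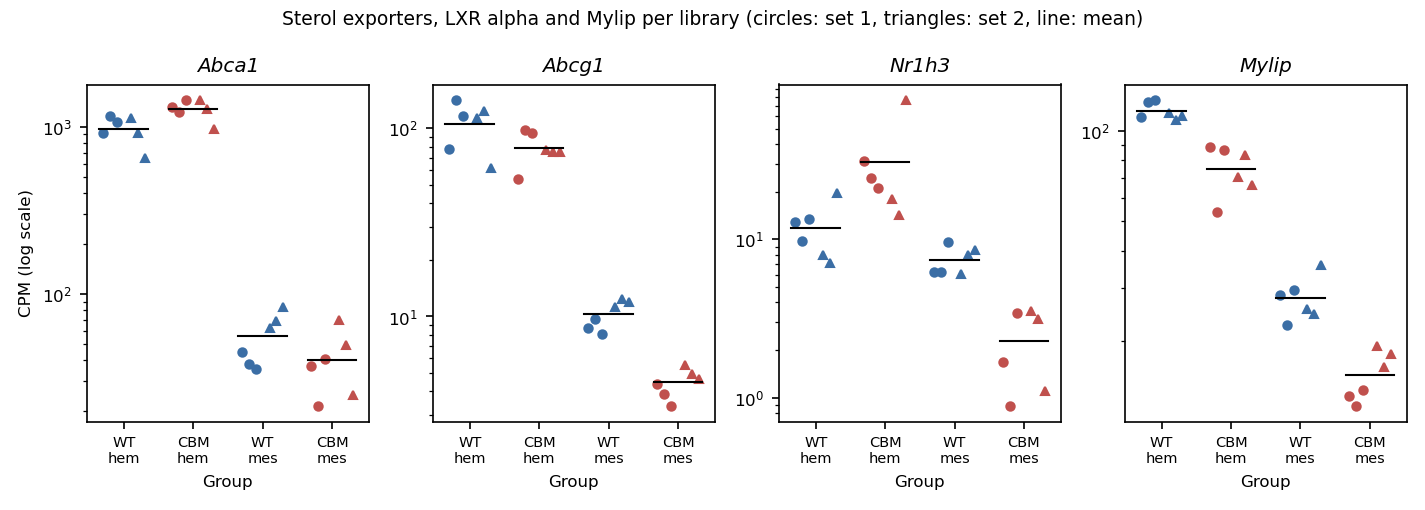
CPM per library (log axis) of the exporters Abca1 and Abcg1, of Nr1h3 and of Mylip, with circles for set 1, triangles for set 2 and a line at the mean of 6 libraries. Abca1, Abcg1 and Mylip separate hematopoietic from mesenchymal libraries, and Nr1h3 is higher in CBM than WT hematopoietic libraries on average but lower in every CBM than in any WT mesenchymal library.

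Among the 29 members, the largest differences between the populations were in export. In WT, Abca1 was at 645.8 to 1165 CPM in hematopoietic and 35.7 to 83.4 CPM in mesenchymal libraries, a fitted log2 difference of -4.17 ± 0.26 (SE) at an adjusted p of 1.29e-12. Abcg1 was 10.3-fold lower (log2 fold change -3.36, SE 0.19, adjusted p = 1.95e-13), and Mylip was 4.20-fold and Soat1 2.81-fold lower. All of these were separated without overlap. Of the 29 members 14 were lower and 3 higher in WT mesenchymal cells, against 38 percent and 35.4 percent of genes. The share of members called lower is not far above the background, and the share called higher is well below it. Neither share was tested. The higher ones were Hsd17b7, a ketosteroid reductase, at 14.2 to 33.7 CPM in hematopoietic and 23.9 to 57.4 CPM in mesenchymal libraries (log2 fold change 0.57), the isomerase Ebp at 28.8 to 48.6 CPM and 31.0 to 90.4 CPM (0.55), and Scap at 26.8 to 40.2 CPM and 33.4 to 43.2 CPM (0.22, adjusted p = 0.0448). Each of these 3 overlapped between the populations. Among the enzymes, Dhcr7 (-1.17), Tm7sf2 (-1.04) and Mvd (-0.79) were lower in mesenchymal cells, and 9 of the 18, Hmgcs1, Cyp51 and Sqle among them, were not called.

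In CBM, 16 members were lower and 2 higher (Hsd17b7 and Scap) in mesenchymal than in hematopoietic cells, against 39.1 percent and 33.9 percent of genes. Abca1 was 32.2-fold lower, Abcg1 17.6-fold and Nr1h3 13.3-fold (log2 fold change -3.74, SE 0.41, adjusted p = 2.16e-08). In WT the Nr1h3 difference was -0.66 (SE 0.36, adjusted p = 0.105). These fold changes share their libraries with the genotype comparisons above and are not further evidence for them. The part of the stromal marker RNA of the hematopoietic libraries in these population differences was not tested.

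The synthesis enzymes also varied between libraries of 1 group. Their summed level was 515.1 to 1297 CPM in WT mesenchymal libraries (median 759.7) and 457.5 to 569.5 CPM in CBM (median 527.6), so the highest was 2.52 times the lowest in WT and 1.25 times in CBM. WT mesenchymal replicate 6 was the highest of its group for 16 of the 18 enzymes and for 24 of the 29 members, and replicate 1 was the lowest for 14 enzymes. The stromal sum of replicate 6, 44770 CPM, and its adipocyte sum, 50.02 CPM, lay within the range of its group. In WT the mean sum was 620.3 CPM in set 1 and 975.1 CPM in set 2; in CBM it was 500.6 and 544.8 CPM. In hematopoietic libraries the sum was 610.8 to 1080 CPM in WT (median 701.2) and 492.5 to 862.4 CPM in CBM (median 617.1). WT hematopoietic replicates 4 and 5 were among the top 2 of their group for 18 and 17 of the 18 enzymes, while replicate 6, of the same set, was lowest for 9.

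**Figure D4:**
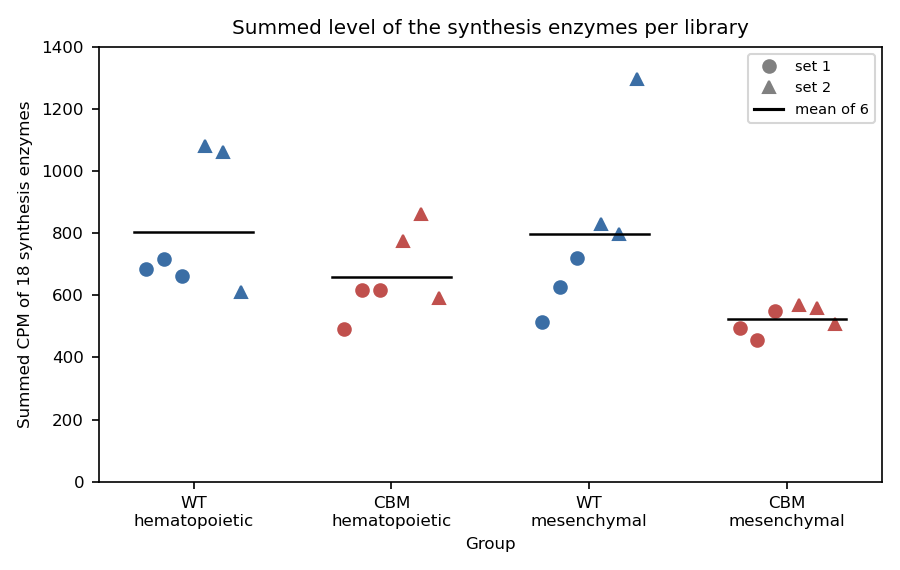
Summed CPM of the 18 synthesis enzymes in each library by group, with circles for set 1, triangles for set 2 and a line at the mean of 6 libraries; the axis starts at 0. CBM mesenchymal libraries lie between 457.5 and 569.5 CPM, and WT mesenchymal libraries spread from 515.1 to 1297 CPM.

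Neighbouring pathways were described from lists of related genes; the shares of all genes tested to read these counts against are 6.89 percent lower and 9.01 percent higher in hematopoietic cells, and 3.83 percent lower and 3.44 percent higher in mesenchymal cells. Of 13 genes of fatty acid synthesis and desaturation, which are mainly targets of SREBP1, 4 fell and 0 rose in CBM hematopoietic cells, and 2 fell and 0 rose in mesenchymal cells. Elovl6, an elongase of palmitate, fell in both (log2 fold change -1.005, SE 0.14, adjusted p = 0.000379 in hematopoietic and -0.67, SE 0.13, adjusted p = 0.00809 in mesenchymal cells). Fasn, the fatty acid synthase, fell in hematopoietic cells (-0.50, SE 0.14, adjusted p = 0.0303). Acaca, which makes malonyl-CoA, fell in hematopoietic cells (-0.37, SE 0.07, adjusted p = 0.0042), and Acss2, which activates acetate, in mesenchymal cells (-0.92, SE 0.16, adjusted p = 0.00342). Srebf1, which encodes SREBP1, was not called in either (log2 fold changes -0.10 and -0.16, adjusted p = 0.527 and 0.554). Of 6 lipoprotein and scavenger receptors, Scarb1 (-0.59, SE 0.07, adjusted p = 0.00014) and Cd36 (-0.60, SE 0.18, adjusted p = 0.0431) fell and Olr1 (1.94, SE 0.42, adjusted p = 0.00761) rose in hematopoietic cells, and of the 5 tested in mesenchymal cells Lrp1 rose (0.35, SE 0.09, adjusted p = 0.0292). Olr1 was low, at a mean of 0.982 CPM in WT and 3.78 CPM in CBM.

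Of 12 genes of SREBP processing and sterol sensing, 2 rose and 1 fell in hematopoietic cells, and 2 rose in mesenchymal cells. Pgrmc1, a sterol-binding membrane protein, rose in both (0.42, adjusted p = 0.00606, and 0.29, adjusted p = 0.0436). Mbtps1, a protease that cleaves SREBP proteins, rose in hematopoietic cells (0.235, adjusted p = 0.0283). The sterol transporter Gramd1b fell in hematopoietic cells (-0.40, adjusted p = 0.00981). Of the LXR partners and oxysterol enzymes, 8 of 9 were tested. Cyp27a1, which makes an oxysterol, fell in hematopoietic cells (-0.70, adjusted p = 0.0042); in mesenchymal cells Arl4c rose (0.72, adjusted p = 0.0219) and Lpcat3 fell (-0.44, adjusted p = 0.0103), both known LXR targets. Of 9 genes of other isoprenoid branches, Nus1 rose (0.41, adjusted p = 0.00796) and Pggt1b fell (-0.20, adjusted p = 0.0409) in hematopoietic cells. In mesenchymal cells 0 of these 9 were called by edgeR or DESeq2, with 1 at an unadjusted p under 0.05. Of 6 genes of lysosomal and cytosolic sterol handling, Npc2 rose (0.24, adjusted p = 0.0237) and Nceh1 fell (-0.31, adjusted p = 0.0176) in hematopoietic cells, and in mesenchymal cells 0 were called by edgeR or DESeq2, with 0 at an unadjusted p under 0.05. Some of these calls were lost when 1 library was left out. In hematopoietic cells these were Fasn (without WT replicate 2, 3, 4 or 5 or CBM replicate 1, 3, 4 or 6, up to 0.0809), Mbtps1 (without WT replicate 1, 2 or 4 or CBM replicate 2, 3 or 4, up to 0.0685), Cd36 (without WT replicate 1, 4 or 6 or CBM replicate 2, 3, 4 or 5, adjusted p up to 0.104), Pggt1b (without any library but WT replicate 5, up to 0.106), Npc2 (without WT replicate 1 or CBM replicate 3, up to 0.0575) and Nceh1 (without CBM replicate 4, 0.0518). In mesenchymal cells they included Lrp1 (without WT replicate 1, 3, 4, 5 or 6 or CBM replicate 2, 3 or 5, up to 0.0659) and Pgrmc1 (without any library but CBM replicates 4 and 5, up to 0.108).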

How the data were processed

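RNA was measured in 24 libraries, 6 for each genotype and sorted population. Stranded paired-end libraries were made after depletion of ribosomal RNA, per the labels' protocols. The deposited files hold whole-number counts per Ensembl gene, not normalised; per the submitters' processing notes, HTSeq 0.9.1, FastQC 0.11.7, MultiQC and DESeq2 1.20.0 were used with GRCm38 (mm10). The strand setting is not given in the sources used here.

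Symbols, coordinates and exon lengths came from GENCODE M21 (54079 identifiers had a symbol). Tests were edgeR 4.0.16 quasi-likelihood tests (robust fit, TMM scaling, the set as a term) in R 4.3.3. Low genes were dropped with filterByExpr, at a count of 10 and a total of 15. P-values were adjusted by Benjamini-Hochberg over all genes tested, with a threshold of 0.05. Genotype comparisons used the 12 libraries of a population, and the population and interaction contrasts all 24. The tests were checked on simulated counts. Alternatives were DESeq2 1.42.0, other size factors, no filter, no set term, a replicate block, a marker covariate, 1 fit of all libraries, each set alone and each library left out. The precision of a value is limited by the totals of 9875390 to 15826711 counts and by 6 libraries a group. The chi-square statistic per degree of freedom between replicates was 7.23 or more, so none were merged.

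The members and lists were chosen with earlier results of these data known. By rule, a member got its range per group if it was called between genotypes or in the interaction or was among the 3 largest population differences each way, and up to 3 called genes per related list were named by adjusted p; Abca1, Insig1, Fdps, Fasn and the marker genes named beside results were added after their values were seen. Some genes of the related lists are counted but not reported here by name.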

Additional observations from a re-analysis of the deposited data

Results flagged for a closer look

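Each member's 6 libraries of a group were examined for a highest or lowest library whose gap to the next, over the whole range, passed Dixon's critical value for 6 samples. Of 116 member and group combinations 14 passed; chance alone flags about 1 in 20 groups, and members of 1 library are not independent. Of the 14, 10 were the same library, WT mesenchymal replicate 6, which was the highest of its group for Hmgcs1 at 291.5 CPM (next 171.3 CPM), Mvd at 16.01 CPM (next 9.825 CPM), Fdft1 at 85.75 CPM (next 63.72 CPM), Msmo1 at 105.8 CPM (next 65.05 CPM), Nsdhl at 44.15 CPM (next 27.73 CPM), Hsd17b7 at 57.42 CPM (next 35.05 CPM), Dhcr7 at 23.61 CPM (next 13.99 CPM), Insig1 at 104.4 CPM (next 65.71 CPM), Insig2 at 38.15 CPM (next 28.57 CPM) and Stard4 at 99.79 CPM (next 60.83 CPM). These 10 genes span mevalonate and sterol enzymes, both Insig genes and the carrier Stard4. In CBM mesenchymal libraries, Mvk stood out in replicate 4 at 19.37 CPM (next 17.77 CPM), Scap in replicate 3 at 47.07 CPM (next 41.13 CPM) and Soat1 in replicate 6 at 242 CPM (next 179.5 CPM). In CBM hematopoietic libraries, Nr1h3 stood out in replicate 6 at 76.45 CPM (next 31.58 CPM).

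The genotype difference of Nr1h3 differed between the populations, by a log2 value of -3.071 in the test of that difference. It rose in CBM hematopoietic cells and fell in CBM mesenchymal cells. The call of the hematopoietic rise was lost in most fits with 1 library left out, that without CBM replicate 6 among them.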

How the results depend on the processing

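Over all alternatives run, no called member changed direction; of the member results in single comparisons, 2358 kept their side of the threshold, 102 lost a call and 42 gained one. In hematopoietic cells, where 5 members were called, the count was 3 with no filter on low counts, 3 with no set term, 2 in set 1 alone, 0 in set 2 alone (edgeR, with 3 at an unadjusted p under 0.05), 8 with the stromal marker level as a covariate and 2 to 10 with 1 library left out; DESeq2 called 7. In mesenchymal cells, where 10 were called, it was 2 in set 1 alone and 1 in set 2 alone (10 and 23 at an unadjusted p under 0.05), and 8 to 14 with 1 library left out; DESeq2 called 14. For the genotype difference between populations the count of 1 became 0 in set 2 alone (edgeR, 5 at an unadjusted p under 0.05) and 1 to 2 with 1 library left out, and the count of 17 for the populations in WT became 10 in set 2 alone. A set alone holds 3 libraries a group. The count over all genes moved as well. In hematopoietic cells it was 2231 in the main fit, 672 in set 1 alone, 218 in set 2 alone and 2819 by DESeq2. In mesenchymal cells it was 1008 in the main fit, 391 in set 1 alone, 76 in set 2 alone and 1664 by DESeq2. Same-numbered libraries were not treated as pairs: their deviations correlated at 0.088 to 0.491 between hematopoietic groups and -0.044 to 0.387 between mesenchymal groups, and 3 and 3 of 6, and 2 and 3 of 6, correlated best with their own number. With a replicate block the hematopoietic count was 13 (all 5 calls shared; gained were Mvk, Fdft1, Sqle, Lss, Cyp51, Sc5d and Abcg1, lower, and Abca1, higher), the mesenchymal count 10 (9 shared; Cyp51 lost at an adjusted p of 0.102, Msmo1 gained) and the count for the difference between populations 2. For counts that moved, the cause was not tested. Scaling by TMM or by median-of-ratios size factors differed by at most 0.075 on the log2 scale.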
